A study of Rattus norvegicus with 18 samples.

Results

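The response that vascular endothelial growth factor (VEGF) and angiopoietin-1 (Ang1) have in common was examined by taking all treated aortic rings as 1 group and setting them against untreated rings. Samples were chosen by their titles: on each array type the 6 treated samples (3 VEGF and 3 Ang1) against the 3 untreated ones, which uses all 18 of the 18 samples in the series. The 18 samples are 9 RNAs, each hybridised to the Affymetrix rat arrays RAE230A (array A) and RAE230B (array B), and the comparison was made within each array type. All rings were 2 mm slices of thoracic aorta from male Fisher 344 rats, aged 5 weeks in the labels and 1 month in the design text. They were kept in serum-free EBM medium. VEGF rings received 10 ng/ml recombinant human VEGF on day 13. Ang1 rings received 100 ng/ml recombinant human angiopoietin-1 together with 5 µg/ml poly-His antibody, also on day 13. Untreated rings stayed in medium alone for the 14 days of culture, without the antibody, so Ang1 and its antibody cannot be told apart. The labels give 20 h of exposure and the design text 18 h. Each RNA came from 4 to 6 rings combined. The design text has every animal giving rings to all 3 groups, but the labels do not tie a replicate number to an animal, and the p-values measure the spread between these samples. Both samples of untreated replicate 1 were labelled by the two-cycle procedure, and the other 16 samples by the standard one.

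VEGF and Ang1 are secreted ligands of receptor tyrosine kinases that sit mainly on endothelial cells. VEGF acts chiefly through VEGFR2, the product of Kdr, and drives sprouting and permeability, whereas Ang1 acts through Tie2, the product of Tek, and is known for stabilising vessels. A cultured aortic ring is an explant of the whole wall, in which endothelial cells, smooth muscle cells, fibroblasts and resident macrophages share the medium. In such bulk RNA, fewer cells of a type and less RNA per cell cannot be told apart. Cytokine and chemokine genes in all of these cells are classical targets of the transcription factor NF-kB, and early transcription factor genes such as Junb follow growth factor signalling through the ERK kinases.

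In rings exposed to either factor, the transcripts of 4 inflammatory ligands stood above every untreated sample on array A: the cytokines Il1b and Tnf and the chemokines Cxcl2 and Ccl4. They were between 2.12-fold and 3.0-fold higher in the 6 treated samples. Junb and Irf1, both transcription factor genes, were also above every untreated sample, by 2.27-fold and 1.63-fold. On the lower side, Pln, Fabp3 and Eci3, a calcium pump regulator and a pair of fatty acid handling genes, lay below every untreated sample, at 0.409, 0.437 and 0.515 times the untreated level. None of these differences passed the threshold over all probe sets. The smallest adjusted p in limma was 0.999 on array A and 0.976 on array B, so all values that follow are measured differences and none is a called change.

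The values are log2(signal + 16) after quantile normalisation within an array type, differences are treated minus untreated on that log2 scale, each with its limma standard error (SE), and folds are on this scale, which understates the change of dim genes. Of the 9520 probe sets tested on array A, 0 (0%) had an adjusted p below 0.05 in limma, and 0 of 9166 (0%) on array B. At an unadjusted p below 0.05, 83 probe sets (0.872%) were higher and 172 (1.81%) lower on array A, and 84 (0.916%) were higher and 104 (1.13%) lower on array B. The scale as deposited was also used, without quantile normalisation and with every array set to a trimmed mean of 250. This raised Ang1 replicate 3 of array B, which was deposited at 94.8. On that scale the split on array A turned to 239 higher and 152 lower, and on array B to 146 higher and 115 lower. That scale shifts the median of all probe sets by 0.08 (array A) and 0.07 (array B), and for Ang1 alone by 0.12 on the latter. Without untreated replicate 2 the array A counts were 70 higher and 69 lower, without Ang1 replicate 2 they were 249 and 290, and without both 164 and 154. For array B the corresponding counts were 68 and 24, 169 and 154, and 137 and 72, and without Ang1 replicate 1 or 3 the totals there were 122 and 114. The lower probe sets thus outnumbered the higher ones only in some of these settings. All 6 treated values lay above all 3 untreated values in 79 probe sets (0.83%) of array A and 71 (0.775%) of array B. They lay below them in 132 (1.39%) and 93 (1.01%). With no difference between groups, each of these patterns is 1 of 84 possible splits, a share of 0.0119, so these shares are near that level. The shares at an unadjusted p below 0.05 likewise did not exceed what that threshold allows with no difference.

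Agreement between the factors was read from a model with the 3 groups apart, on the same values. VEGF and Ang1 share their untreated samples, so the sign of both differences is not independent. Each factor alone had an unadjusted p below 0.05 in the same direction in 17 probe sets higher (0.179%) and 25 lower (0.263%) on array A, and in 10 higher (0.109%) and 2 lower (0.0218%) on array B. Probe sets with opposite directions at that level numbered 0 on array A and 1 on array B. A difference of at least 0.5 for each factor, with no overlap of treated and untreated values, was seen in 31 probe sets higher (0.326%) and 72 lower (0.756%) on array A. On array B these were 31 (0.338%) and 48 (0.524%). This last rule, with 1 symbol per probe set and 1 probe set per gene, left 28 genes higher and 61 lower for array A, 12 and 28 for array B. The 12 with the smallest p in each direction are described for array A and the first 8 for array B. Their separation from the untreated samples is thus set by the choice and is given as a description.

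Among the RNAs, untreated replicate 2 and Ang1 replicate 2 stood apart from the rest. Their median correlations with the other arrays were 0.791 and 0.689 on array A, where the other 7 had 0.875 to 0.945, and 0.747 and 0.428 on array B, where the other 7 had 0.808 to 0.869. Both were kept, and differences without them are given beside the results. Markers of the expected wall cells were measured. On array A, 16 of 20 smooth muscle markers and 12 of 16 endothelial markers with a probe set lay above the filter on dim signals, among them Acta2, Myh11, Pecam1, Kdr and Vwf, and Tek was measured on array B. Of all genes with a probe set on array A, 7177 of 10412 lay above that filter, so the marker counts are only a description. The 3'/5' signal ratio of the beta-actin control, which rises as RNA or its labelled copy is shortened, was 1.86 to 7.70 in untreated, 8.79 to 12.4 in VEGF and 6.18 to 8.29 in Ang1 samples of array A. This is 1.13 log2 units higher in treated samples (two-sided exact permutation test, p = 0.0238, 6 against 3, smallest possible p = 0.0119). On array B the difference was 0.55 (exact permutation p = 0.440). The Gapdh ratio differed by 0.59 on array A (exact permutation p = 0.571) and by -0.02 on array B (exact permutation p = 0.988). Untreated replicate 2 held the lowest actin ratio of array A, 1.86, and a Gapdh 3' signal of only 64.4 there. Ang1 replicate 2 had 447, and the other 7 RNAs had 2218 to 3247. With so weak a signal the Gapdh ratio of untreated replicate 2, 1.70, is an uncertain measure, and its actin ratio enters the covariate used below.

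**Figure D1:**
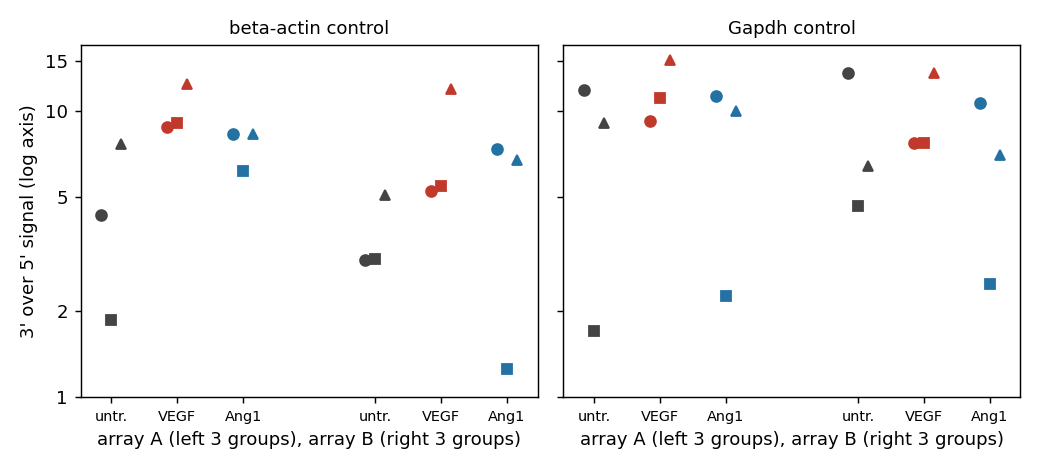
The 3'/5' ratio of control signal (log axis) for beta-actin and Gapdh in the 18 samples, untreated in grey, VEGF in red, Ang1 in blue, with circles, squares and triangles for replicates 1, 2 and 3. On array A the actin ratio of the VEGF samples, 8.79 to 12.4, lies above the untreated range of 1.86 to 7.70, while the Gapdh ratios overlap.

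The 2 genes of the described set whose promoter window held a match to the NF-kB consensus, Cxcl2 and Irf1, are shown beside Il1b and Pln, which led the higher and the lower genes by p and whose windows held none. Sequences are the 250 bases before the annotated start, 5' to 3' on the gene's strand, from RefSeq (build GRCr8), with matches on either strand in capitals.
Cxcl2, chr14:17467256-17467505, minus strand: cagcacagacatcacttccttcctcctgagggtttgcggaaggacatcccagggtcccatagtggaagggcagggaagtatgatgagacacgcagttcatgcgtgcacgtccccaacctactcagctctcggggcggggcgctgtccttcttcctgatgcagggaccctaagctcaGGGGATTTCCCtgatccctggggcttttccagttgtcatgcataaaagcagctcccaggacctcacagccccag
Irf1, chr10:38417685-38417934, plus strand: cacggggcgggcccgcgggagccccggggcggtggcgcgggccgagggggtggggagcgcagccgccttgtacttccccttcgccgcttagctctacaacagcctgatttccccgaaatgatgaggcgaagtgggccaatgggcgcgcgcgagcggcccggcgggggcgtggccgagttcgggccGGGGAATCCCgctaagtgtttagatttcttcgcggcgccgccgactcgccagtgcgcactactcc
Il1b, chr3:137036582-137036831, minus strand: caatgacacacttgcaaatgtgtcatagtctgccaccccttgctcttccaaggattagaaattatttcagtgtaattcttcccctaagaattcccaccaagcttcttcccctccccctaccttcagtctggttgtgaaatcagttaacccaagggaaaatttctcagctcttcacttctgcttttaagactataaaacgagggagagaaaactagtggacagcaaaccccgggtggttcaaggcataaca
Pln, chr20:33172244-33172493, plus strand: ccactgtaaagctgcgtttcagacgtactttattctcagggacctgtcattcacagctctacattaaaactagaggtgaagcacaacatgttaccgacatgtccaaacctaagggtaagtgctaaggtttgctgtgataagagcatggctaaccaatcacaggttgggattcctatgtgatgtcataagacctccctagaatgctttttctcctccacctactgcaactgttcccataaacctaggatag
In Cxcl2 the capitals are a pair of overlapping matches from 74 to 64 bases before the start, and in Irf1 1 match from 65 to 56 bases before it. Windows of 300 bases, which reach 50 bases past the start, were present for 33 of the 40 described genes, and Ccl4 had none. The NF-kB consensus matched 2 of the 33, and 4.16% of all 27457 windows in the table. TGANTCA, an AP-1 type sequence, was found in 4 of the 33 windows (Cst7, Pon3, Slfn2 and Tom1l2) and in 7.33% of all. GTAAACA, a FOXO type sequence, was in 3 of the 33 (Cnst, Junb and Rnf123) and in 3.76% of all, and the E-box CACGTG in 4 of the 33 (Cnst, Commd3, Slfn2 and Slirp) and in 6.65% of all. Both strands were searched, matches of different motifs were allowed to overlap, and a match is a description of letters, not a bound site.

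Il1b encodes interleukin-1 beta, a secreted cytokine that activates endothelium. Its level was 6.85, 7.81 and 7.19 in the untreated samples, 8.47, 8.32 and 7.87 after VEGF, and 8.89, 8.41 and 8.81 after Ang1. Every treated sample was above the highest untreated one, although VEGF replicate 3 exceeded untreated replicate 2 only narrowly. The difference was 1.18 ± 0.30 (SE, n = 6 and 3), with 0.94 for VEGF and 1.42 for Ang1. Tnf, the gene of tumour necrosis factor, had 6.21, 5.66 and 5.35 untreated, 7.10, 7.45 and 6.27 after VEGF, and 8.19, 6.67 and 8.11 after Ang1. The highest treated levels of Tnf were those of Ang1 replicates 1 and 3, and the lowest, VEGF replicate 3, lay just above untreated replicate 1. The pooled difference of Tnf was 1.56 ± 0.43, made of 1.20 for VEGF and 1.92 for Ang1.

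Other cytokine genes differed less. Il1a, which encodes the related interleukin-1 alpha, was 0.57 ± 0.30 higher, and Csf1, the gene of a macrophage growth factor, 0.46 ± 0.32 higher, both with overlapping groups. Of the 12 measured genes of the cytokine list on array A, 10 were higher and 2 lower, with a median of 0.15 against -0.01 over all 7177 genes. Il1b and Tnf were the 2 with an unadjusted p below 0.05, in a direction that held 0.872% of all probe sets. Without the 2 RNAs that stood apart, Il1b was 1.51 and Tnf 1.68 higher. With the actin ratio as a covariate they were 1.63 and 1.80 higher. The list's median was 0.29 without both RNAs and 0.52 with the covariate.

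The chemokine genes were the list with the highest median on array A, out of 41 lists with at least 5 measured genes. Of the 14 measured, 13 were higher and 1, Pf4, was lower (-0.45 ± 0.43), and the median difference was 0.64, with 0.64 for VEGF and 0.75 for Ang1. The mean of the list, each gene centred on its own average, ran from -0.79 to 0.03 in the untreated samples and from 0.05 to 0.45 in the treated ones, so the 2 groups lay close together at untreated replicate 2 and VEGF replicate 1. Of the 14 genes 5 had an unadjusted p below 0.05 in limma and 3 had no overlap, against 0.872% and 0.83% of all probe sets in this direction. These genes were picked with earlier results of these data known, and no gene passed the adjusted threshold.

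Cxcl2 encodes a neutrophil attractant. It had 5.85, 6.43 and 5.72 in untreated samples, 7.93, 7.33 and 6.72 after VEGF and 8.09, 6.81 and 8.63 after Ang1. The separation was smallest between untreated replicate 2 and VEGF replicate 3, and largest for Ang1 replicate 3. The difference was 1.58 ± 0.42, a 3.0-fold higher level, with 1.33 for VEGF and 1.84 for Ang1. Ccl4, another chemokine gene, had 7.56, 7.54 and 6.75 untreated, 8.14, 8.02 and 7.69 after VEGF and 8.59, 9.10 and 8.65 after Ang1. All 3 Ang1 samples lay above all 3 VEGF samples for this gene. Ccl4 was higher by 1.08 ± 0.33, with 0.67 for VEGF and 1.5 for Ang1. VEGF and Ang1 differed by -0.83 ± 0.32, at an unadjusted p of 0.0245 and an adjusted p of 0.972 in limma.

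Ccl2, the gene of the monocyte attractant MCP-1, had 8.27, 9.68 and 9.38 in untreated samples against 9.28 to 10.79 (median 10.38) in treated ones. VEGF replicate 1 lay within the untreated range and the other 5 treated samples above it. The difference was 1.17 ± 0.38. Ccl3, close kin of Ccl4, was 0.99 ± 0.34 higher, with 3 of 6 treated samples above all untreated ones. Cx3cl1, which encodes the membrane-bound fractalkine of endothelium, was 0.81 ± 0.30 higher and had no overlap, with 9.45 as the lowest treated and 9.40 as the highest untreated value. Cxcl1, another neutrophil attractant, was 1.41 ± 0.71 higher, but Ang1 replicate 2 had 6.22, below all untreated samples.

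Cxcl10, an interferon-inducible gene (0.58 ± 0.67), had a difference below its standard error. So did Ccl5 (0.22 ± 0.48), Ccl22 (0.02 ± 0.25) and Cxcl12 (0.14 ± 0.22). On array B 5 further chemokine genes were measured, of which 4 were higher and 1 lower, with a median of 0.65 against -0.04 over the 4035 genes there. Ccl19 had 0.93 ± 0.41, with 0.38 for VEGF and 1.48 for Ang1, and Ccl7 had 0.91 ± 0.56. Cxcl14 was the lower one, at -0.43 ± 0.52. Without the 2 RNAs that stood apart, the array A median of the chemokine genes was 1.02, again with 13 of 14 higher. Leaving out 1 sample at a time gave 0.59 to 0.95, and the actin covariate 1.11.

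**Figure D2:**
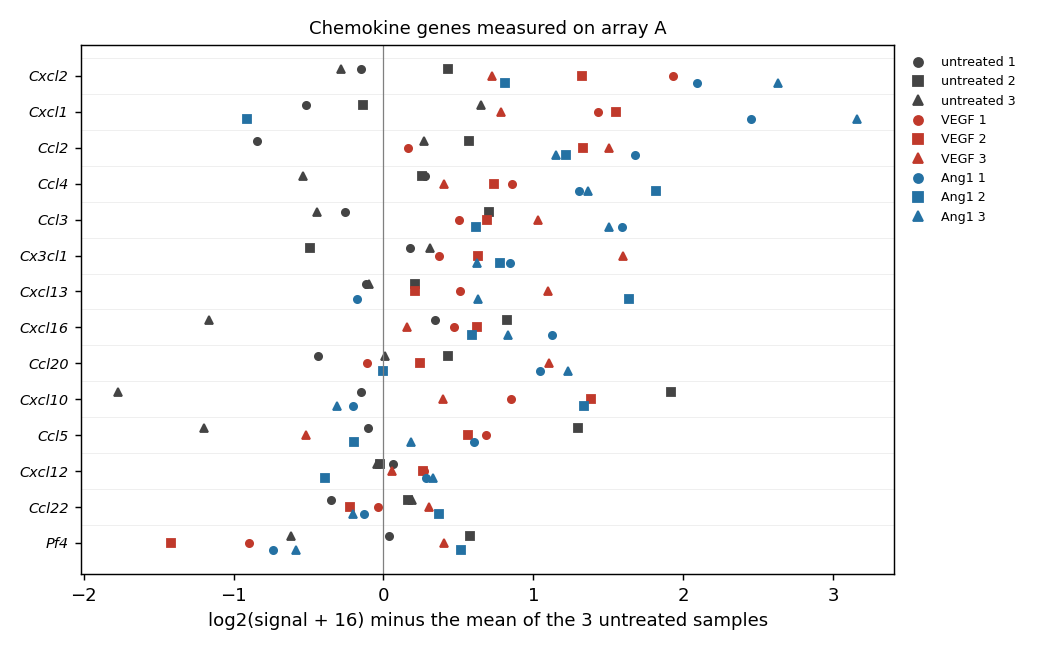
Level of the 14 chemokine genes measured on array A in each of the 9 samples, as log2(signal + 16) minus the mean of the 3 untreated samples (grey untreated, red VEGF, blue Ang1, symbols for replicates). For Cxcl2, Ccl4 and Cx3cl1 all 6 treated points lie right of all 3 untreated ones, and for the other 11 genes the groups overlap.

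Irf1 encodes an interferon and NF-kB regulated transcription factor. Its level was 7.68, 8.0 and 7.87 untreated, 8.16, 8.63 and 8.36 after VEGF and 8.57, 8.86 and 8.75 after Ang1. The untreated samples spread over 0.160 (SD), and the difference of 0.71 ± 0.23 (0.54 for VEGF, 0.88 for Ang1) exceeded that spread. Among 20 measured NF-kB subunit and target genes, 17 were higher and 3 lower, with a median of 0.33, and 0.32 and 0.33 for the factors. In this list 3 genes had an unadjusted p below 0.05, Irf1, Birc3 and Sod2, and 2 had no overlap, where all probe sets held 0.872% and 0.83% in this direction. Birc3, an inhibitor of cell death, was 0.64 ± 0.25 higher. Sod2, the mitochondrial superoxide dismutase, was 1.06 ± 0.46 higher, with Ang1 replicate 2 (8.64) and VEGF replicate 3 (9.23) as its lowest treated samples. Tnip1, a brake on NF-kB signalling, was 0.55 ± 0.26 higher. The subunit genes Rela (0.08 ± 0.53) and Nfkb1 (0.19 ± 0.37) had differences below their standard errors, and Nfkb2 had 0.52 ± 0.25 with no overlap. Without both RNAs that stood apart the median was 0.33, with 19 of 20 genes higher. With the actin covariate it was 0.23, with 14 higher and 6 lower. On array B only 5 genes of the list were measured, with 3 higher, 2 lower and a median of 0.10, which was -0.036 without untreated replicate 3 and 0.33 without Ang1 replicate 1.

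Junb encodes an AP-1 subunit of the immediate early class. It had 6.67, 5.39 and 6.95 in untreated samples, 7.60, 7.46 and 7.38 after VEGF and 7.33, 7.95 and 7.36 after Ang1. Treated samples lay close together, at an SD of 0.235, and untreated ones apart, at 0.831. The difference was 1.18 ± 0.33, nearly the same for VEGF (1.15) and Ang1 (1.21). It was 0.65 without the 2 RNAs that stood apart, since untreated replicate 2 held the lowest value, and 0.58 with the actin covariate. Of the 18 immediate early genes measured, 11 were higher and 7 lower, with a median of 0.12. Junb alone among them had an unadjusted p below 0.05, 1 of 18 against 0.872% of all probe sets in this direction, and nothing about the list is read from 1 gene. The median was 0.018 without Ang1 replicate 3 and 0.22 without untreated replicate 2. Ier5 (0.78 ± 0.39), Ier3 (0.58 ± 0.40) and Egr1 (0.40 ± 0.23), all early growth factor targets, were higher with overlapping groups. Ier3 and Egr1 turned to -0.094 and -0.0227 with the actin covariate.

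Interferon response genes on array A numbered 28 measured, 25 higher and 3 lower, with a median of 0.36 (0.45 for VEGF, 0.28 for Ang1). Besides Irf1, Tapbp, which loads peptides on MHC class I, had all treated samples above the untreated ones, at 0.60 ± 0.23, as had Ifitm3, an antiviral membrane protein gene, at 0.36 ± 0.19. These 3 of 28 stand beside 0.83% of all probe sets with no overlap in this direction. At an unadjusted p below 0.05 in limma 3 of the 28 were higher and 1 lower, against 0.872% and 1.81% of all probe sets. Ifngr1, a chain of the interferon-gamma receptor, was 0.81 ± 0.35 higher, but -0.0836 with the actin covariate. Stat2, a transducer of type I interferon signalling, was the largest lower member at -1.30 ± 0.39. It had 9.52, 10.37 and 9.19 untreated and 7.38 to 9.32 treated, with only VEGF replicate 1 inside the untreated range. A second probe set of Stat2 was 0.19 ± 0.25 higher, so the gene's direction is not settled by this array. Leaving out untreated replicate 3 brought the list's median to 0.11, and leaving out untreated replicate 1 to 0.51. On array B 5 genes were measured, 2 higher and 3 lower, with a median of -0.08. Without untreated replicate 3 that median was -0.45 and without untreated replicate 2 it was 0.34, so it has no settled direction.

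Genes of complement and the acute phase had a median of 0.33, with 13 of 15 measured higher and none at an unadjusted p below 0.05. C1s, a complement protease, was 0.33 ± 0.17 higher, C1qb 0.63 ± 0.32 and Orm1, an acute phase protein, 0.62 ± 0.37, whereas Cp, the gene of ceruloplasmin, was lower at -0.49 ± 0.25. This median was 0.13 without untreated replicate 2, 0.63 without Ang1 replicate 2 and -0.15 with the actin covariate. MHC class II genes, whose products present antigen, had 6 of 8 higher with a median of 0.45. RT1-Bb was 0.61 ± 0.30, RT1-DMa 0.52 ± 0.28, RT1-DMb 0.48 ± 0.24 and the invariant chain gene Cd74 0.55 ± 0.35 higher, all with overlapping groups.

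Macrophages are a source of most of these cytokines, and their markers were set beside them. Of the 19 macrophage markers measured on array A, 15 were higher and 4 lower, with a median of 0.32 and none at an unadjusted p below 0.05. The mean of the list ran from -0.66 to 0.20 in untreated and from -0.21 to 0.22 in treated samples. The groups overlapped, since untreated replicate 1 (0.20) lay above all Ang1 samples. Untreated replicates 2 (-0.23) and 3 (-0.66) lay below all treated samples, the former only narrowly below Ang1 replicate 2. Cd14 (1.07 ± 0.52), Cybb (0.59 ± 0.29) and Gpnmb (0.63 ± 0.42) were higher, while Cd68 (0.03 ± 0.29), Aif1 (-0.08 ± 0.42) and Ptprc (-0.21 ± 0.47) had differences below their standard errors. All 19 had passed the filter on dim signals, so none was at 0. On array B 3 of 5 markers were higher, with a median of 0.55 that was 0.03 on the scale as deposited, and 0.43 (without untreated replicate 2) to 0.80 (without untreated replicate 1) with 1 sample left out. The array A median was 0.10 without untreated replicate 3 and 0.37, with 19 of 19 higher, without both RNAs that stood apart. Gpnmb had -0.44 with the actin covariate. The part of macrophage number in the cytokine values was not tested.

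Further genes higher in all treated samples of array A had varied functions. Cndp2, a cytosolic dipeptidase gene, had 9.27, 9.20 and 9.12 untreated and 9.66 to 10.66 (median 10.08) treated, a difference of 0.91 ± 0.25. The untreated samples of Cndp2 had an SD of 0.076. Rnf123, a ubiquitin ligase gene, was 0.81 ± 0.24 higher, with a second probe set at 0.01 ± 0.39. Pmp22, a myelin and growth arrest gene, was 0.85 ± 0.23 higher by 1 probe set and lower by another, at -0.37 ± 0.29. Ppp2r5b, a regulatory subunit gene of protein phosphatase 2A, was 0.97 ± 0.29 higher, and Tom1l2, whose product sorts endosomal cargo, 0.98 ± 0.29. Dmwd completed the 12, at 0.85 ± 0.27. Without the 2 RNAs that stood apart the 12 genes were 0.65 to 2.00 higher, and with the actin covariate 0.37 to 1.99 higher. Of these 12 genes 10 were among the 17 probe sets with an unadjusted p below 0.05 for each factor. Ccl4 and Irf1 were the other 2. This overlap follows largely from the choice of the genes on the same values and is not separate agreement between the factors.

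**Figure D3:**
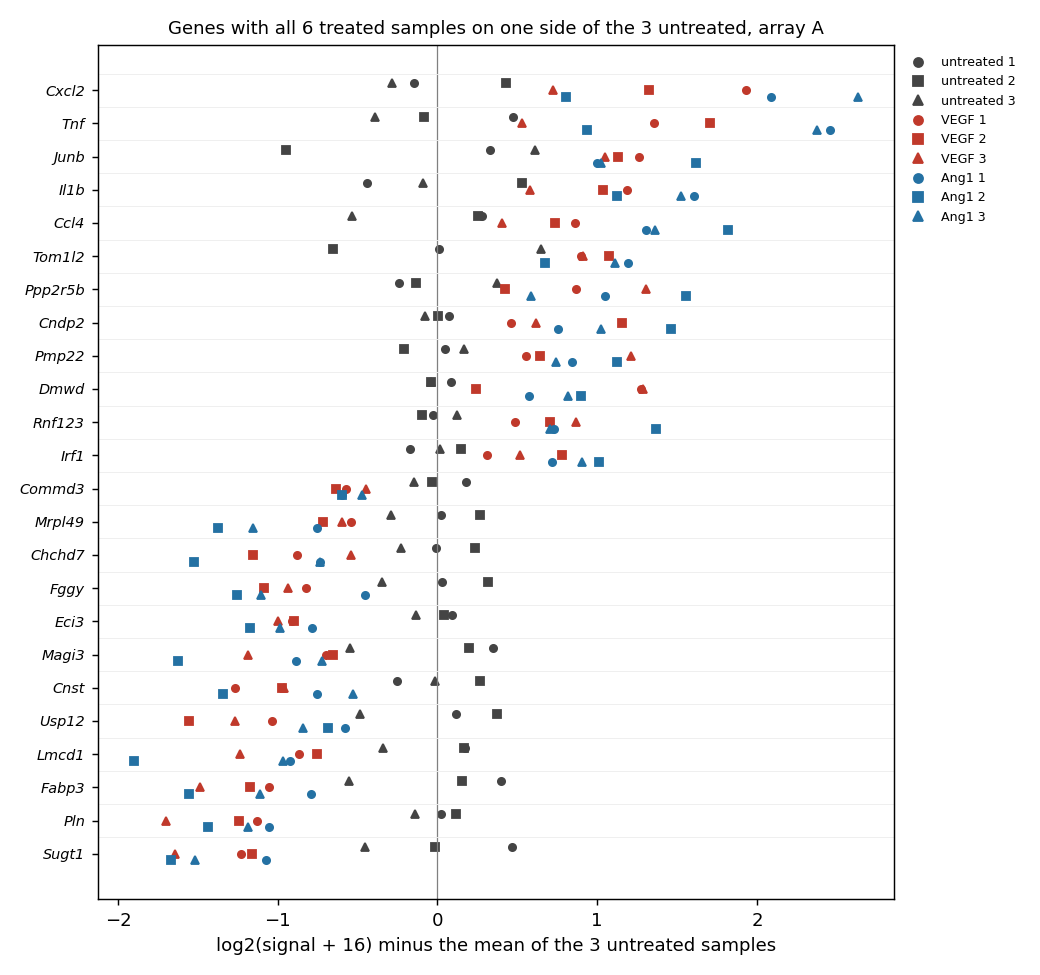
The 12 higher and 12 lower genes of array A in each of the 9 samples, as log2(signal + 16) minus the mean of the 3 untreated samples (grey untreated, red VEGF, blue Ang1, symbols for replicates). The genes were chosen so that all 6 treated points lie on 1 side of the untreated ones, and Cxcl2 and Tnf, at 1.58 and 1.56, have the largest mean distance on the higher side.

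Pln, the gene of phospholamban, which restrains the calcium pump of the sarcoplasmic reticulum in muscle, had the smallest p of array A (0.000108 in limma, unadjusted). Its level was 8.96, 9.05 and 8.80 untreated, 7.81, 7.70 and 7.24 after VEGF and 7.88, 7.5 and 7.75 after Ang1. The gap between the lowest untreated and the highest treated sample was wide compared with the SD of 0.128 and 0.237 within the groups. The difference was -1.29 ± 0.22, with -1.36 for VEGF and -1.23 for Ang1. A second probe set of Pln gave -0.71 ± 0.29, again with no overlap. Without both RNAs that stood apart the first was at -1.24, and with the actin covariate at -1.12.

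Other smooth muscle genes differed less than Pln. Of 16 markers measured on array A 3 were higher and 13 lower, with a median of -0.25 (-0.33 for VEGF, -0.13 for Ang1). Pln alone had an unadjusted p below 0.05, in a direction that held 1.81% of all probe sets. Myh11, the smooth muscle myosin heavy chain gene, was at -0.70 ± 0.32, with 5 of 6 treated samples below all untreated ones. Tpm2, a tropomyosin gene, was at -0.55 ± 0.26. Without untreated replicate 3 these were -0.31 for Myh11 and -0.35 for Tpm2. Acta2 (-0.26 ± 0.38) and Cnn1 (-0.27 ± 0.28), actin and calponin genes of the contractile apparatus, had differences below their standard errors, and Cald1 had -0.28 ± 0.23 but 0.0498 with the actin covariate. The list's mean overlapped between groups, at -0.42 to 0.52 untreated and -0.40 to 0.18 treated. Its median was -0.30 without both RNAs that stood apart and -0.88 with the actin covariate. On array B 3 of 7 markers were higher and 4 lower, with a median of -0.20 that turned to 0.03 without both RNAs. There Synm was 1.09 ± 0.45 higher, against -0.26 ± 0.23 on array A, and Itga8, an integrin subunit gene, was at -0.77 ± 0.33.

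Eci3, which encodes an isomerase of fatty acid oxidation, had 10.78, 10.73 and 10.55 untreated, 9.77, 9.79 and 9.69 after VEGF and 9.90, 9.51 and 9.70 after Ang1. Both groups were tight, with an SD of 0.120 untreated and 0.129 treated, and the difference was -0.96 ± 0.19. Fabp3, the heart type fatty acid binding protein gene, had 8.24, 8.0 and 7.30 untreated, 6.79, 6.67 and 6.36 after VEGF and 7.05, 6.29 and 6.74 after Ang1. Untreated replicate 3 was nearest to the treated samples. The difference was -1.20 ± 0.28. Fatty acid genes as a list showed no such shift, since 13 of 29 were higher and 16 lower, with a median of -0.07. Etfb, an electron transfer gene, had -0.78 ± 0.41, and Eci2, kin of Eci3, -0.44 ± 0.32, both with Ang1 replicate 2 as the lowest sample. Oxidative phosphorylation genes had 11 higher and 22 lower of 33, with a median of -0.06.

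The remaining lower genes of array A were led by Sugt1, a co-chaperone gene of kinetochore assembly. It had 9.99, 9.51 and 9.07 untreated and 7.86 to 8.45 (median 8.16) treated, a difference of -1.38 ± 0.26. Lmcd1, which encodes a LIM protein of muscle, was at -1.11 ± 0.29, with Ang1 replicate 2 the lowest at 6.35. Usp12, a deubiquitinase gene, was at -0.99 ± 0.29, Cnst at -0.97 ± 0.25 and Magi3, a junctional scaffold gene, at -0.96 ± 0.30, with a further pair of Magi3 probe sets at -0.05 and -0.07. Fggy, a carbohydrate kinase gene, had -0.94 ± 0.25 and Chchd7 -0.93 ± 0.26. Mrpl49, a mitochondrial ribosomal protein gene, had -0.86 ± 0.26. Commd3 had the smallest difference, -0.55 ± 0.17, with 11.55, 11.34 and 11.22 untreated and 10.73 to 10.92 treated. Without both RNAs that stood apart the 12 lower genes were at -1.36 to -0.54, and with the actin covariate at -1.24 to -0.47. VEGF and Ang1 differed at an unadjusted p below 0.05 for 0 of these 12, and for 189 of all 9520 probe sets of array A.

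Grem1, which encodes the BMP antagonist gremlin, was the one member of the TGF-beta and BMP list with an unadjusted p below 0.05. It had 8.37, 8.91 and 8.22 untreated and 7.47 to 7.99 (median 7.85) treated, with no overlap and a difference of -0.72 ± 0.24. This was -0.49 without both RNAs that stood apart. The list itself had 14 higher and 18 lower of 32, with a median of -0.05. Since 1.81% of all probe sets were lower at that level, 1 of 32 is near the background and is no result about the list. Acvrl1, the endothelial receptor ALK1, was 0.54 ± 0.25 higher. Smad2, a signal transducer gene, was at -0.48 ± 0.28, and Tgfb2 at -0.38 ± 0.23 with other probe sets at 0.04 and 0.07. Matrix genes were split likewise, 15 higher and 18 lower of 33, with Fn1, the fibronectin gene, at 0.30 ± 0.21, Prelp at 0.46 ± 0.36, Vcan, the versican gene, at -0.54 ± 0.31 and Col6a3 at -0.43 ± 0.25. Fn1 was at -0.0249 with the actin covariate. Hypoxia and glycolysis genes had 22 of 30 higher and a median of 0.17, and cholesterol genes 9 of 17 higher and a median of 0.11 on array A against 0 of 5 and -0.24 on array B.

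Among the 9 genes of VEGF and angiopoietin ligands and receptors measured on array A, 4 were higher and 5 lower, with a median of -0.15, 0 at an unadjusted p below 0.05 and 0 with no overlap of groups. Kdr had 8.66 to 8.75 in untreated and 7.26 to 9.11 in treated samples, with a difference of -0.15 ± 0.37. For Kdr the VEGF value was 0.16 and the Ang1 value -0.46. Vegfa was 0.15 ± 0.29 higher, Nrp1, a VEGF co-receptor, 0.49 ± 0.55, and Tie1, an orphan relative of Tie2, 0.05 ± 0.27. Ptprb, the endothelial phosphatase that acts on Tie2, had -0.50 ± 0.34. Another Ptprb probe set, on array B, had a higher treated mean with overlapping groups (5.86 to 9.14 treated, 5.99 to 9.17 untreated). On array B Tek, the Tie2 gene, had 11.24, 11.11 and 11.49 in untreated samples, 10.93, 10.60 and 11.08 after VEGF and 10.83, 9.81 and 10.96 after Ang1. All 6 treated samples lay below the untreated ones, by the narrowest margin for VEGF replicate 3 and by the widest for Ang1 replicate 2. The difference of Tek was -0.58 ± 0.30, at an unadjusted p of 0.0828 and an adjusted p of 0.976 in limma, and 1.01% of all probe sets of array B had treated values below all untreated ones. The array A median of the list turned to 0.06 without both RNAs that stood apart. Of 12 endothelial markers on array A 8 were higher and 4 lower, with a median of 0.05 (0.25 for VEGF, -0.12 for Ang1), which was -0.25 without untreated replicate 2 and -0.68, with 3 higher and 9 lower, with the actin covariate. On array B 1 of 4 endothelial markers was higher and 3 were lower, Tek among them, with a median of -0.56 (-0.33 for VEGF, -0.78 for Ang1). The mean of these markers, each centred on its own average, was -1.79 in Ang1 replicate 2. It was -0.11 to 0.41 in the other treated samples and 0.04 to 0.52 in the untreated ones, so the groups overlapped. Erg, an endothelial transcription factor gene, was 0.93 ± 0.43 higher on array A and at -0.54 ± 0.42 by its array B probe set.

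**Figure D4:**
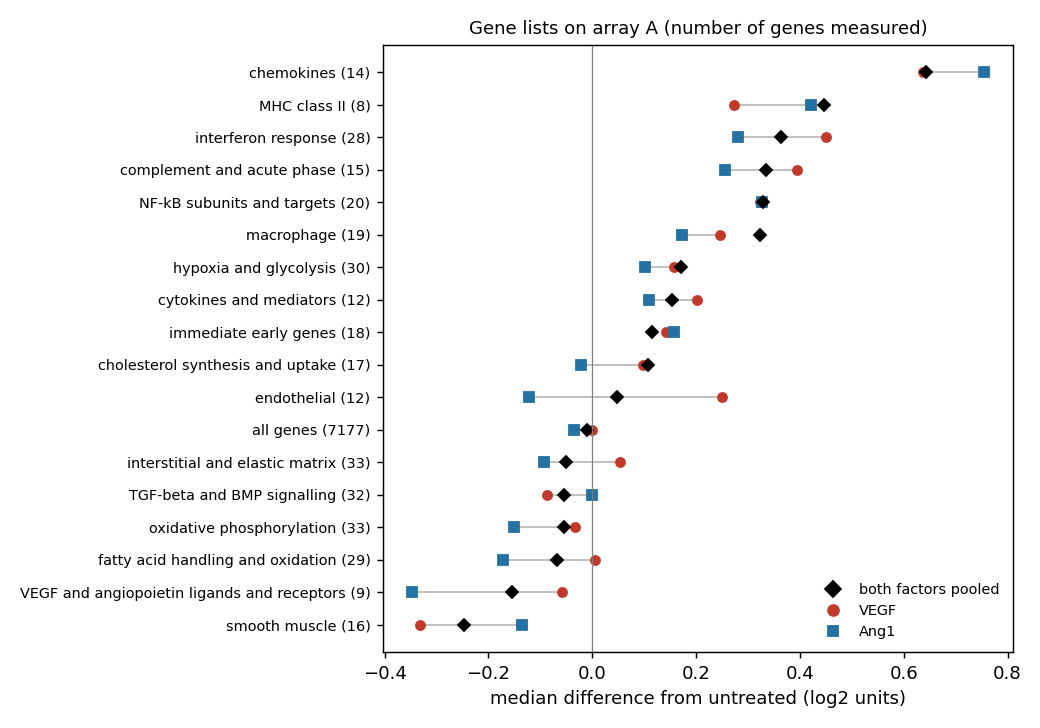
Median difference from untreated (log2 units) of the genes of 17 lists and of all genes on array A, with both factors pooled as black diamonds, VEGF as red circles and Ang1 as blue squares; the number of genes measured is in brackets. Chemokine genes lie at 0.64 and smooth muscle markers at -0.25, while all 7177 genes lie at -0.01.

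Another 24 lists with at least 5 measured genes on array A had medians from -0.14 (Schwann cell markers) to 0.25 (integrins). On array B 11 further lists ran from -0.34 (cell cycle genes) to 0.43 (ERK feedback genes). In the last, Etv4, a transcription factor gene downstream of ERK, was 1.47 ± 0.53 higher. It was singled out after its value was seen.

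Array B holds many less characterised transcripts, 7663 of its 15333 probe sets being unnamed here. Its higher genes were led by Pilrbl1, an immune receptor relative. It had 8.05, 7.69 and 8.05 untreated and 8.54 to 9.05 (median 8.76) treated, a difference of 0.87 ± 0.25. Mir9-3hg, the host transcript of a microRNA, was 1.27 ± 0.38 higher, with 7.61 in untreated replicate 1 close to the lowest treated value of 7.65. Slfn2, a Schlafen gene of immune cells, had 10.00, 10.13 and 9.93 untreated and 10.36 or more in every treated sample, a difference of 0.73 ± 0.24. Cst7, the gene of the leukocyte protease inhibitor cystatin F, was 0.75 ± 0.27 higher. Rxrg, a retinoid receptor gene, was 0.86 ± 0.28 higher on array B and 0.23 ± 0.36 by its array A probe set.

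For 3 higher genes of array B other probe sets gave other values. Slirp, which binds mitochondrial mRNA, was 1.10 ± 0.34 higher but at -0.38 ± 0.44 on array A. Arl2bp, a binding partner of the small GTPase ARL2, was 1.23 ± 0.43 higher and at 0.03 ± 0.36 on array A. Prkag2, a subunit gene of the energy sensor AMPK, was 1.14 ± 0.43 higher by 1 probe set and at -0.65 ± 0.39 and -0.24 ± 0.35 by others. These genes carry no settled direction across their probe sets.

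Among the lower genes of array B, Rab30, a Golgi GTPase gene, had the largest difference, -1.66 ± 0.53. It had 7.85, 8.17 and 7.85 untreated, 7.70, 7.33 and 5.95 after VEGF and 5.49, 5.22 and 6.06 after Ang1. VEGF replicate 1 nearly reached the untreated samples. A second probe set of Rab30 was at 0.12 ± 0.32. VEGF and Ang1 differed by 1.40 ± 0.47 for the first, at an adjusted p of 0.561 in limma. Foxp2, a transcription factor gene, was at -1.25 ± 0.44, with Ang1 replicate 2 (7.08) and VEGF replicate 3 (7.62) lowest.

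Pon3, which encodes an antioxidant lactonase, had 9.86, 10.50 and 9.99 untreated and 8.39 to 9.63 treated, a difference of -1.06 ± 0.35. Loxl2, a collagen crosslinking enzyme gene, had 8.72, 8.60 and 8.55 untreated and 6.87 to 8.36 treated. Its difference was -0.90 ± 0.33, with -0.51 for VEGF and -1.28 for Ang1. A second probe set of Loxl2 was at -0.10 ± 0.69. Robo2, a guidance receptor gene, was at -0.98 ± 0.31 with a second probe set at 0.07 ± 0.27, and the lipid transporter gene Abca8 at -0.99 ± 0.38 with a second at 0.62 ± 0.46. Sbspon was at -0.83 ± 0.32 and Plac9 at -0.65 ± 0.25. Of these 8 lower genes 1, Robo2, was among the 2 probe sets with an unadjusted p below 0.05 for each factor. Of the 8 higher ones 4 were among the 10. These overlaps too follow in part from the choice of the genes. VEGF and Ang1 differed at an unadjusted p below 0.05 in 3 of the lower genes, Rab30, Pon3 and Loxl2, each lower after Ang1, and in 0 of the higher ones. The smallest adjusted p for that difference among these genes was 0.561 in limma. Over all 9166 probe sets of array B, 777 differed at that unadjusted level. The choice required the same direction for each factor, so these counts are no result about the genes. Without both RNAs that stood apart the higher genes were 0.62 to 1.22 higher and the lower ones at -1.33 to -0.60.

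**Figure D5:**
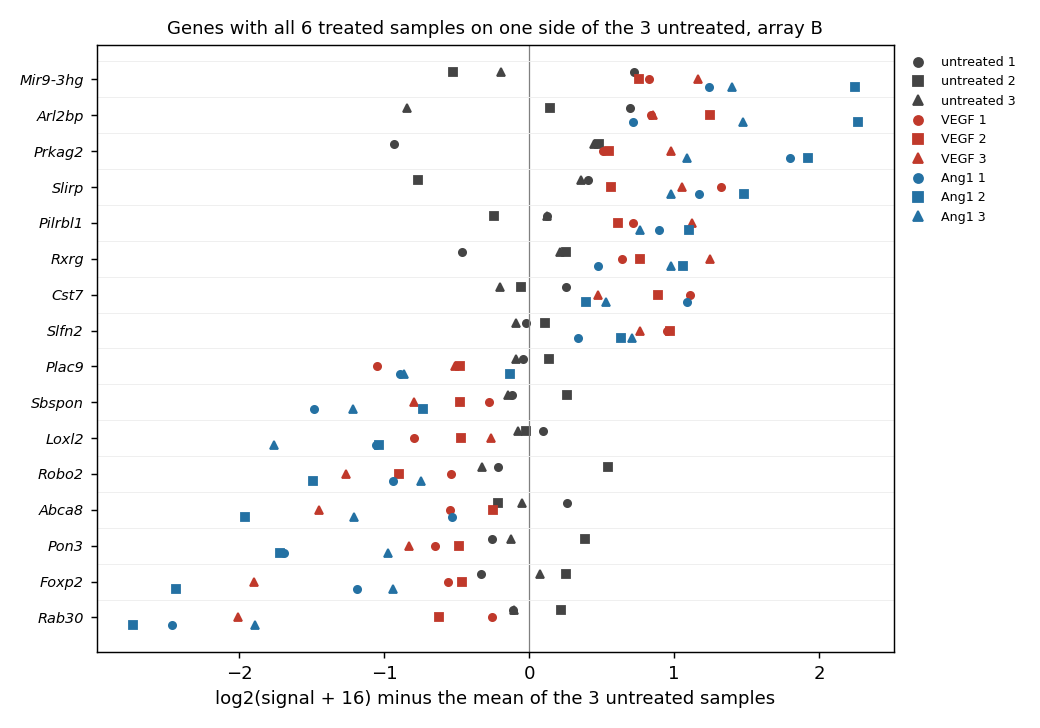
The 8 higher and 8 lower genes of array B in each of the 9 samples, as log2(signal + 16) minus the mean of the 3 untreated samples (grey untreated, red VEGF, blue Ang1, symbols for replicates). The genes were chosen so that the treated points do not overlap the untreated ones, and Rab30 spans the widest range of treated values, from 5.22 to 7.70 on the log2 scale.

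Over all probe sets, VEGF and Ang1 themselves differed at an adjusted p below 0.05 in 0 of 9520 (array A) and 0 of 9166 (array B). At an unadjusted p below 0.05 these were 189 and 777 in limma, and the smallest adjusted p was 0.972 and 0.0839. A missed threshold does not show that the factors act alike. For the 24 genes described on array A the adjusted p of VEGF against Ang1 was 0.972 or more, and Ccl4 was the 1 gene with an unadjusted p below 0.05.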

How the data were processed

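The deposited values are one linear intensity per probe set and sample, summarised by the authors with MAS5 per the submitters' processing notes. The MAS5 version, and whether detection calls were made, are not given in the sources used here. The trimmed mean of the deposited intensities (2% off each end) was 250.0 to 250.1 in 17 samples and 94.8 in Ang1 replicate 3 on array B. Array type A was RAE230A and type B RAE230B, and the number of arrays limits the precision.

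From these, log2(signal + 16) was computed, the 57 control probe sets per array type were left out, arrays of 1 type were quantile normalised, and probe sets with a mean below the 40th percentile were dropped, which left 9520 of 15923 (array A) and 9166 of 15333 (array B). Symbols came from the platform annotation, 12789 and 7570 probe sets having 1 symbol, 312 and 100 several and 2822 and 7663 none, and 12754 and 7530 symbols were updated by gene ID. Treated and untreated samples were compared with limma 3.58.1 in R 4.3.3, as 6 against 3 with an intensity trend, and p-values were adjusted by Benjamini-Hochberg over each array type, with 0.05 as the threshold. Values per factor came from a 3-group model. The test was also run on simulated data of the same size, with 200 changed probe sets. It recovered 17% of changes of 1 log2 unit and 87% of changes of 2 for array A, 5% and 62% for array B. False calls numbered 5 and 4. The simulated noise was independent between probe sets and samples, with no RNA standing apart and no difference in actin ratio.

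Genes named were those with 1 symbol, all treated values on 1 side of all untreated values and at least 0.5 log2 units for each factor, by p, 12 per direction on array A and 8 on array B, passing over LOC and RGD symbols, and up to 4 members by p of 12 lists. Beside them, further members of the chemokine, NF-kB, muscle, endothelial, macrophage and receptor lists are named. In all, 34 pathway lists and 14 cell type lists were summarised with the brightest probe set per gene, without a set test. The members, lists and rules were chosen with earlier results of these data known, and which lists are described in detail was decided after their values were seen. Alternatives were the deposited scale (every array set to a trimmed mean of 250), 2 other filters, 2 other pseudocounts and a 3-group model. Further ones were the replicate number as a block, array weights, the actin ratio as a covariate and no intensity trend. Single samples or both RNAs that stood apart were also left out.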

Additional observations from a re-analysis of the deposited data

Results flagged for a closer look

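Per-sample values in the groups of 6 treated samples were screened for a sample far from the other 5, by its gap over the group's range against Dixon's 95% critical value. Of 72 groups screened 10 were marked, where chance marks about 1 in 20 of independent groups. The 72 groups come from the same 6 treated RNAs and are not independent, so the count is not judged against that rate. All 10 marks were values of Ang1 replicate 2. On array A its mean, with each gene centred on its own average, was -0.446 for complement and acute phase genes, where the other 5 treated samples had 0.084 to 0.369. It was -0.210 for macrophage markers (others 0.121 to 0.219), -0.315 for fatty acid genes (others -0.050 to 0.082) and -0.614 for interstitial and elastic matrix genes (others 0.075 to 0.187). It was -0.650 for cholesterol genes (others 0.101 to 0.210) and -0.407 for oxidative phosphorylation genes (others -0.007 to 0.1). On array B its mean for macrophage markers was -0.993 (others 0.079 to 0.506). Its median correlation with the other arrays was 0.689 on array A and 0.428 on array B, where the other treated samples had 0.875 to 0.945 and 0.808 to 0.866. Its Gapdh 3' signal on array A was 447, against 2855 to 3247. The cause was not tested.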

How the results depend on the processing

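The count at an adjusted p below 0.05 in limma was 0 on both array types under all 20 alternatives, leaving out samples included. In 783 comparisons with an alternative, the 40 named genes stayed above the threshold (smallest adjusted p 0.0726) and kept their direction. Their choice required no overlap of groups, so leaving out samples could hardly turn that direction, and its keeping is no support for them. At an unadjusted p below 0.05, the 255 probe sets of array A became 391 on the deposited scale, 499 with no filter, 548 with array weights and 624 with the actin ratio as a covariate, and 139 (without untreated replicate 2) to 539 (without Ang1 replicate 2) when 1 sample was left out. The 188 of array B became 470 with no filter, 113 with a filter at the 60th percentile, 287 in the 3-group model, 316 with array weights and 1423 with the actin covariate, and 92 (without untreated replicate 2) to 323 (without Ang1 replicate 2) with 1 sample left out, 122 without Ang1 replicate 1 and 114 without Ang1 replicate 3 among them. Probe sets with no overlap of groups, 211 on array A, became 351 with no filter, 131 at the 60th percentile and 274 to 695 with 1 sample left out, and 765 without untreated replicate 2 and Ang1 replicate 2 together. On array B these were 164, 290 with no filter, 208 to 665 with 1 sample left out and 597 without both. Fewer samples overlap less often by construction, and the cause of the other shifts was not tested. With the actin covariate 6 named list members reversed on array A: Egr1 (-0.0227), Ier3 (-0.094), Ifngr1 (-0.0836), Fn1 (-0.0249), Gpnmb (-0.44) and Cald1 (0.0498). In 43 comparisons with an alternative, list medians moved by at least the SD of the list mean over the 3 untreated samples. In 423 they moved by less. Untreated and treated samples of the same replicate number correlated in their deviations at 0.144 to 0.489 (array A) and 0.142 to 0.289 (array B), and VEGF and Ang1 samples of the same number at -0.146 to 0.235 and -0.212 to 0.232. Pairs from different groups with different numbers ran from -0.449 to 0.334 (array A) and from -0.256 to 0.241 (array B). Deviations were taken from each group's mean, so same-number and different-number values are not independent. The labels tie no number to an animal, and whether the numbers pair the samples is not settled. The replicate block gave 314 and 160 probe sets at an unadjusted p below 0.05 and 0 at the adjusted threshold, so it changed no call.

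The comparison had 3 untreated samples, 2 RNAs standing apart and an actin ratio that differed between groups on array A. The simulation held independent noise and neither of the last 2 features. There, changes of 1 log2 unit were recovered in 17% (array A) and 5% (array B) of cases. Those of 2 log2 units were recovered in 87% and 62%. How often such changes are recovered in the real samples was not tested.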
